A study of Mus musculus with 2 samples.

Results

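The 5 miRNA genes described here, Mir335, Mir298, Mir296, Mir483 and Mir675, lie in imprinted regions of the mouse genome at the Mest, Gnas, Igf2 and H19 loci. They were chosen by name and locus, apart from the imprinted Dlk1-Dio3 and Sfmbt2 clusters, and make up 5 of the 2202 miRNA genes counted. Small RNA was sequenced from tissue labelled as layer of hippocampus, and the layer is not named. The mice were B6CASTF1/J, hybrids of the strains C57BL/6J and CAST/EiJ, all female and aged 36 days. The series had 1 group of 2 libraries, biological replicates 1 and 2, and no treatment or genotype was contrasted. Both samples carry the same donor entry and different biosample entries, so separate animals are not established by the labels and the spread between libraries may be technical in part.

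In genomic imprinting a gene is expressed mainly from the maternal or the paternal chromosome. A miRNA is cut from a hairpin within a longer primary transcript, and its seed (bases 2 to 8) guides it to messenger RNAs, which it represses. In most tissues, Mest, Igf2 and the antisense RNA Nespas of the Gnas locus are known as paternally expressed. The noncoding RNA H19 is known as maternally expressed. The hybrid cross carries different parental alleles, but the deposited counts sum over both, so the parental origin of reads was not measured.

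The sequences below show what each hairpin can release, with the seed in capitals (RefSeq, build GRCm38.p6). Counts were made per hairpin, so the 5p and 3p arms were not told apart.
miR-335-5p: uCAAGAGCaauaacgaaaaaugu
miR-335-3p: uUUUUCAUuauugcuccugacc
miR-298-5p: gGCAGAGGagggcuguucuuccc
miR-298-3p: gAGGAACUagccuucucucagcuu
miR-296-5p: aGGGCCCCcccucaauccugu
miR-296-3p: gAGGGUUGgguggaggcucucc
miR-483-5p: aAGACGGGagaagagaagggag
miR-483-3p: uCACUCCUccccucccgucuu
miR-675-5p: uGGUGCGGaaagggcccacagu
miR-675-3p: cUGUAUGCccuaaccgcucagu

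The 10 mature sequences carried 10 different seeds, and no other gene among the 1738 mature mouse sequences searched had any of them. The members thus have a kind of locus in common and no seed. The arms of miR-483 were the most one-sided in composition, with 95.5% purines in the 5p arm and 9.52% in the 3p arm. The mature arms of Mir335 were poor in G and C (30.4% and 36.4%), against 50% to 68.2% in the 8 arms of the other genes. None of the 5 hairpins shared a stretch of 20 bases with the hairpin of another annotated miRNA gene. Among GENCODE M21 transcripts, the mature sequences occurred only in their own hairpin entries and, for miR-675, in H19. Further genomic copies were not searched for.

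Mir335 is on the plus strand of chromosome 6 (30741299 to 30741396, mm10), in an intron of all 7 annotated Mest transcripts that span it. Mir296 (174267047 to 174267125) and Mir298 (174267504 to 174267585) lie 378 bases apart on the minus strand of chromosome 2. No other annotated transcript spans them, and the near end of Nespas, on the same strand, is 13651 bases away. Mir483 is on the minus strand of chromosome 7 (142654924 to 142654996), in an intron of all 7 Igf2 transcripts that span it and of the Igf2-overlapping gene Gm49394. Mir675 lies 77776 bases from it on the same strand, from 142577064 to 142577147, inside an exon of 3 of the 4 H19 transcripts that span it.

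**Figure D1:**
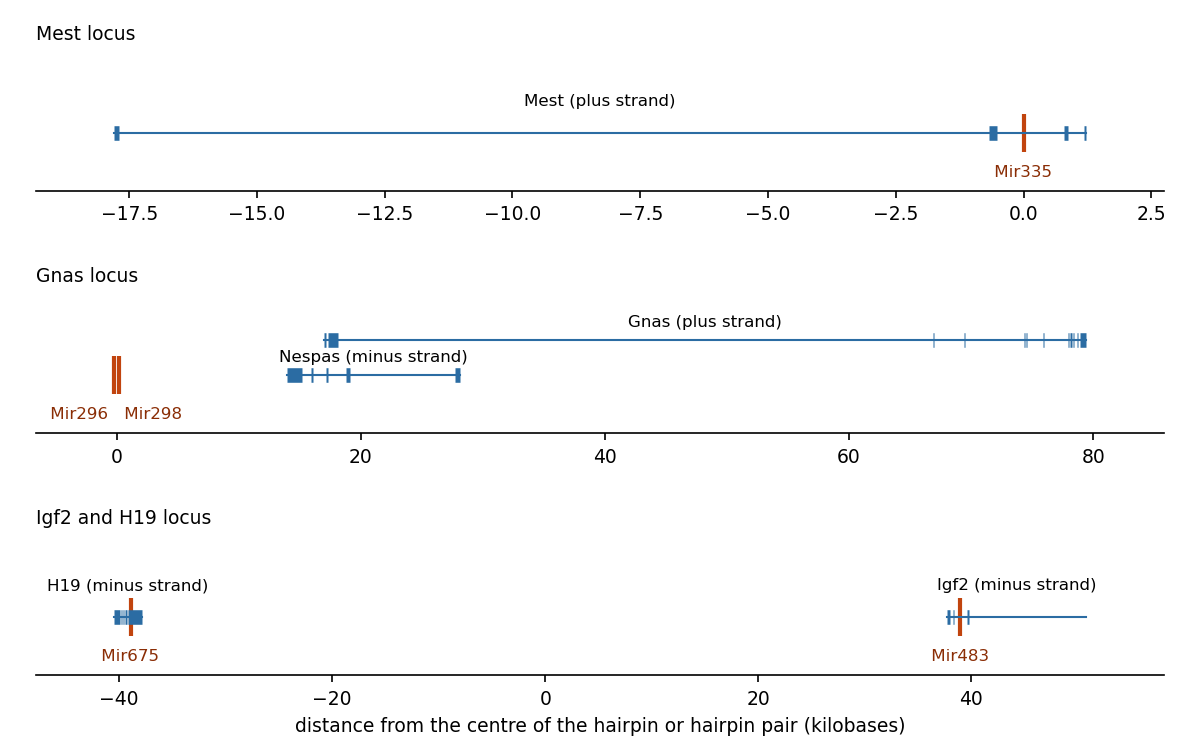
Position of the hairpins (red ticks) relative to the longest annotated transcript of each neighbouring gene (blue lines, exons as thick blocks), with distance in kilobases from the centre of the hairpin or hairpin pair. The transcripts drawn for Mest and Igf2 stop before the downstream end of the annotated gene. Mir335, Mir483 and Mir675 lie inside a host gene, whereas Mir296 and Mir298 lie 13651 bases or more outside annotated Nespas.

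Depth was 2928141 sense reads on miRNA genes in replicate 1 and 3644157 in replicate 2, and levels are given as counts per 1000000 of these (CPM). Neuronal miRNA genes chosen as a check of the tissue (Mir137, Mir128-1, Mir138-1 and Mir132) were detected in 4 of 4 cases. Their summed levels were 31651 and 37390.5 CPM in replicates 1 and 2. Mir128-1 and Mir138-1 have paralogs, so their levels as single genes are uncertain. Of the 9 pluripotent-cell miRNA genes listed, 8 were found by name. Of these 8, 7 were at 0, and together they held 1 read per library. The other, Mir292a, is annotated as Mir292 and had 0 reads in replicate 1 and 2 in replicate 2.

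Of the 5 imprinted genes, 4 were detected, meaning at least 10 sense reads in each library, against 17.1% of all 2202 miRNA genes. Together they held 0.880% of sense reads in replicate 1 (exact 95% interval 0.869% to 0.890%) and 0.569% in replicate 2 (0.561% to 0.577%). The larger sum in replicate 1 came with Mir298: without that gene the members summed to 4640.5 CPM and 4660.1 CPM in replicates 1 and 2, a ratio of 0.996. All intervals cover counting error only. A small RNA read spans a mature product rather than sampling a long transcript, so CPM was not divided by length for comparisons between genes. Divided by hairpin length, the order of the members in each library was the same, with 38.7 and 39.5 CPM per base for Mir335 and 50.7 and 12.6 for Mir298 in replicates 1 and 2.

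Mir335, the intronic miRNA of Mest, had 11108 reads in replicate 1 and 14091 in replicate 2, or 3794 CPM (3723 to 3865) and 3867 CPM (3803 to 3931). Its level was 3830 ± 51.8 CPM (SD, n = 2), at rank 49 and rank 44 among all miRNA genes. The miR-335 product is known in human breast cancer as a suppressor of metastasis. Replicates were nearly level, with a ratio of replicate 1 over replicate 2 of 0.981 (0.957 to 1.01), which the read test did not call (exact binomial test on the reads, two-sided, Benjamini-Hochberg adjusted p = 0.192). Only 15 of the 470 genes with a ratio lay closer to 1.

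Mir298, whose product is known to repress the beta-secretase Bace1 in mouse cells, had 12166 reads in replicate 1 and 3758 in replicate 2. These were 4155 CPM (4082 to 4229) and 1031 CPM (999 to 1065), with a mean of 2593 ± 2209 CPM (SD, n = 2). The SD was close to the mean itself, and the gene stood at rank 45 in replicate 1 and rank 94 in replicate 2. In replicate 1 it lay above Mir335 and in replicate 2 below it, and the counting intervals of both genes were apart in each library. The order of these neighbours was thus not settled by 2 libraries.

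Mir296, known in mouse embryonic stem cells as a repressor of Nanog, had 2352 reads in replicate 1 and 2590 in replicate 2. Its level was 803 CPM (771 to 836) and 711 CPM (684 to 739), with a mean of 757 ± 65.4 CPM (SD, n = 2), at ranks 107 and 115. It was below Mir298 in both libraries. The difference of their means was smaller than the SD of Mir298.

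Mir483, the intronic miRNA of the growth factor gene Igf2, was much lower. It had 128 reads in replicate 1 and 301 in replicate 2, or 43.7 CPM (36.5 to 52.0) and 82.6 CPM (73.5 to 92.5). Its mean was 63.2 ± 27.5 CPM (SD, n = 2), at ranks 235 and 212, and it lay below Mir335, Mir298 and Mir296 in both libraries.

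Mir675, cut from H19 and known from placenta, where it limits growth, had 0 reads in both libraries in sense and in antisense orientation. Such a count allows up to 3 reads, equal to 1.02 CPM (replicate 1) and 0.823 CPM (replicate 2). The gene was not detectable at this depth, and is 1 of 1479 miRNA genes without a sense read in either library. Its hairpin was the most stable of the 5 in RNAfold, at -56.0 kcal/mol, against -44.3 for Mir335, -43.2 for Mir296, -42.7 for Mir298 and -33.8 for Mir483, with medians of -36.3 over detected and -33.2 over all miRNA genes. By this measure Mir483 was less stable than the median of detected genes. Per base, each of the 5 hairpins was more stable than at least 78.0% of annotated miRNA hairpins. The medians per base were -0.436 kcal/mol over detected and -0.369 over all miRNA genes. Mir335 at -0.452 and Mir483 at -0.463 lay near the median of detected genes. Mir298 was at -0.521, Mir296 at -0.547 and Mir675 at -0.667. Hairpin GC content was 42.9% for Mir335, 53.7% for Mir298, 58.9% for Mir483, 63.1% for Mir675 and 63.3% for Mir296, against medians of 51.8% over the 376 detected genes and 50.8% over all.

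**Figure D2:**
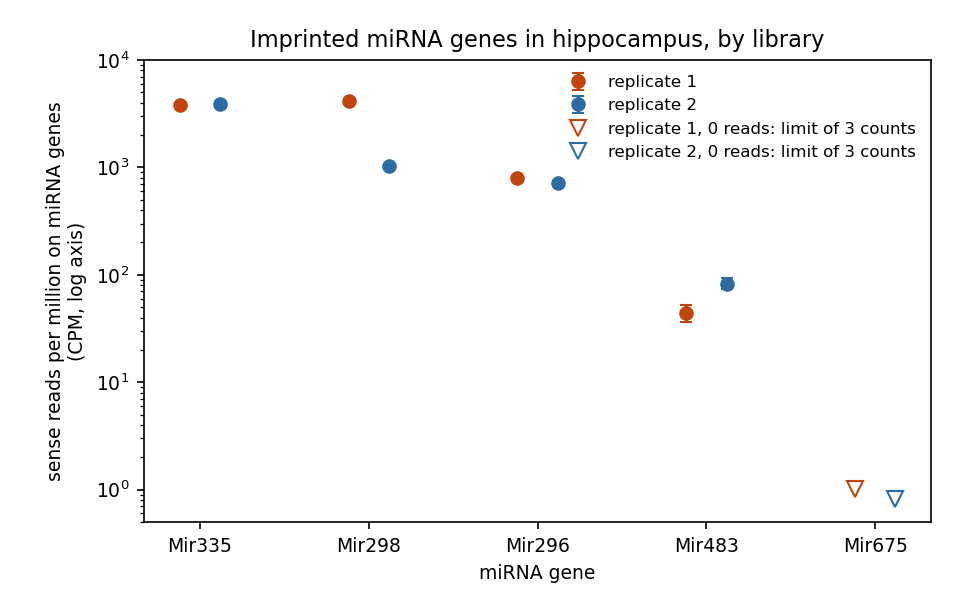
Level of each gene in CPM (log axis) in replicate 1 (red) and replicate 2 (blue), with exact 95% counting intervals where they exceed the symbol and open triangles at the limit of 3 counts for 0 reads. Mir335 and Mir296 are close between libraries, Mir298 is at 4155 and 1031 CPM, Mir483 is at 43.7 and 82.6 CPM, and Mir675 has no read.

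The exact binomial test on reads compared the libraries, not conditions. It called 3 of the 4 members tested, against 58.0% of 474 miRNA genes, so the count says little about the members in particular. Mir298 and Mir296 were called higher in replicate 1 (26.4% of tested genes were) and Mir483 lower in replicate 1 (31.6% of tested genes were). With totals of all reads in the table, 73 of 267 called genes were higher in replicate 1, in place of 125 of 275.

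The size of the difference separated the members more than the calls did. Mir298 was 4.03-fold higher in replicate 1 than in replicate 2 (3.88 to 4.18), with an adjusted p at or below 1e-300 by the exact binomial test. Its log2 ratio of 2.01 had rank 29 by size among 470 genes with reads in both libraries, and rank 5 among the 152 with a mean count of at least 1000. In that abundant set the median difference was 1.23-fold, and 15 genes (9.87%) differed by at least 2-fold. Mir296 differed by 1.13-fold (interval 1.07 to 1.196, adjusted p = 4.92e-05, exact binomial test), less than the median of the same set, and was at 0.993 with totals of all reads in the table (adjusted p = 0.865, exact binomial test; 7.14e-09 to 0.865 over the alternatives).

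Mir483 was at 0.529 of its replicate 2 level in replicate 1 (0.427 to 0.653, adjusted p = 1.84e-09 by the exact binomial test). The median log2 ratio of the 4 tested members was 0.07, against -0.03 over all genes with a ratio, and the median size of the log2 ratio was 0.55 against 0.48. For Mir335 the direction depended on scaling, with a ratio of 1.01 under TMM and 1.03 when the most abundant gene was kept out of the totals, where it was called (adjusted p = 0.0375, exact binomial test), and 0.862 with totals of all reads, where it was called in the other direction (adjusted p = 3.59e-31, exact binomial test). Over all alternatives its adjusted p ran from 3.59e-31 to 1 in the exact binomial test.

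**Figure D3:**
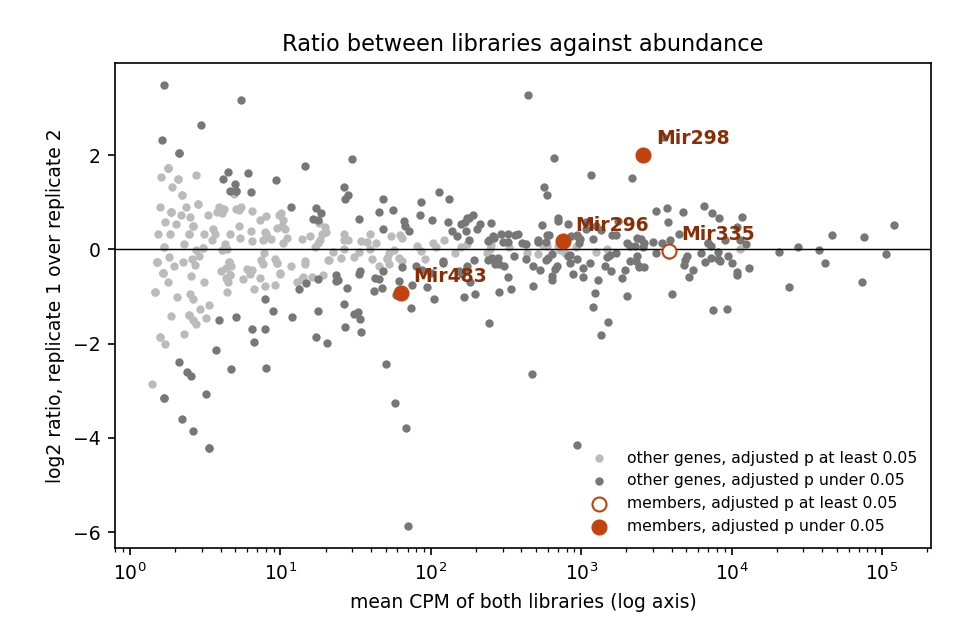
Log2 ratio of replicate 1 over replicate 2 against mean CPM (log axis) for miRNA genes with reads in both libraries and a summed count of at least 10, with members in red. Mir298 lies at 2.01 among abundant genes that mostly fall near 0, while Mir335 and Mir296 lie near the zero line and Mir483 at -0.92.

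Mir298 and Mir296 are close neighbours on the same strand, and their ratios of replicate 1 over replicate 2 were unlike in size, 4.03 and 1.13. The hairpins follow, 5′ to 3′ on the minus strand, with the mature arms in capitals, to show the products counted under each gene.
Mir298: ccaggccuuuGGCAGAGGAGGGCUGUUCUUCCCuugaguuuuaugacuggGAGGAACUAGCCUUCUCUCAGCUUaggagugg
Mir296: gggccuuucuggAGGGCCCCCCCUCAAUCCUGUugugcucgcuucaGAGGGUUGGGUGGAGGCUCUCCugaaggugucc

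Mir298 took 83.8% of the reads of both genes in replicate 1, with an exact Clopper-Pearson interval of 83.2% to 84.4%, and 59.2% in replicate 2, with one of 58.0% to 60.4%. This was 5.17 reads of Mir298 per read of Mir296 in replicate 1 (4.95 to 5.41) and 1.45 in replicate 2 (1.38 to 1.53). The odds ratio between libraries was 3.56 (exact interval 3.33 to 3.81; two-sided Fisher's exact test, p at or below 1e-300). It needs no scaling of the libraries, since the library total cancels between genes counted in the same library. As a mean over libraries the share was 71.5% ± 17.4 (SD, n = 2).

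Other adjacent miRNA genes were examined the same way after this difference had been seen. Genes with mean counts of at least 100 gave 83 pairs of next neighbours on the same strand, at most 10000 bases apart, in which the log2 ratios within a pair differed by a median of 0.39. The Mir298 and Mir296 pair differed by 1.83, second in size after Mir182 and Mir183 at 2.08. Many of the 83 pairs lie in the Dlk1-Dio3 cluster, and many share a gene with the next pair. The median and the rank thus do not rest on 83 separate loci. Pairing neighbours anew among genes with mean counts of at least 1000 gave 45 pairs, which are not all among the 83. Of these the Mir298 and Mir296 pair had the largest difference, and the next was 1.55.

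**Figure D4:**
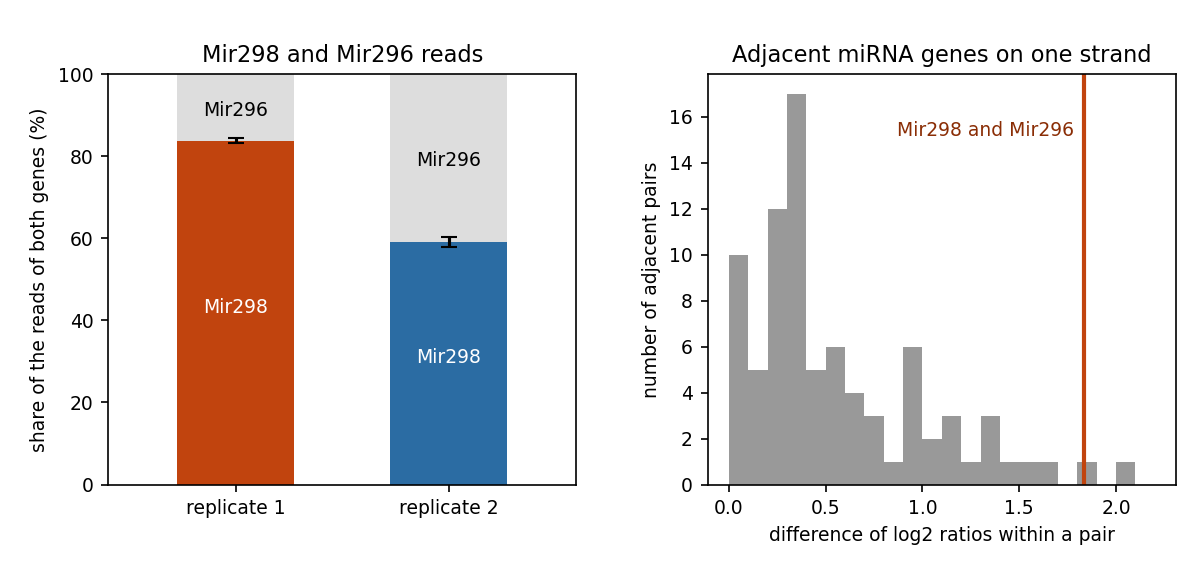
Left, share of Mir298 (coloured) and Mir296 (grey) in the reads of both genes, with exact 95% intervals, 83.8% Mir298 in replicate 1 and 59.2% in replicate 2. Right, histogram of the difference of log2 ratios within 83 adjacent pairs, with the Mir298 and Mir296 pair marked at 1.83.

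Within the set, Mir298 held the largest share of member reads in replicate 1 and Mir335 in replicate 2. Mir335 made up 43.1% and 67.9% of member reads in replicates 1 and 2, Mir298 47.2% and 18.1%, Mir296 9.13% and 12.5%, and Mir483 0.497% and 1.45%.

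Levels of other cell types' miRNA genes also differed between the libraries. The red blood cell genes Mir451a, Mir144 and Mir486 were called higher in replicate 1 in 3 of 3 cases, with summed levels of 1176 and 339.7 CPM in replicates 1 and 2, against 26.4% of all tested genes called in that direction. The astrocyte-associated genes Mir31, Mir29a and Mir22 were called higher there in 3 of 3 cases (15264 and 11124 CPM), as was endothelial Mir126a (14516 and 8969 CPM). With totals of all reads 2 of the 3 astrocyte-associated genes were, since Mir29a was at 1.01 (adjusted p = 0.453, exact binomial test; 1.12e-110 to 0.453 over the scalings). The listed red blood cell, astrocyte-associated and endothelial genes were thus called in the direction of Mir298, apart from Mir29a under that scaling. These lists held 3, 3 and 1 genes and were chosen with earlier results of these data known. Other astrocyte-associated genes were not listed, so the shared direction says little about these cell types. Genes outside these lists went both ways. Leukocyte Mir150 was at 0.662 and Mir143 of vessel walls at 0.741, both called lower in replicate 1. Oligodendrocyte Mir219a-2 (2.86) and Mir338 (1.51) were called higher there. The neuronal genes went both ways. Mir138-1 at 1.73 and Mir132 at 1.14 were called higher in replicate 1, and Mir137 at 0.721 and Mir128-1 at 0.407 lower. Mir138-1 and Mir128-1 have paralogs (Mir138-2 at 1.76 and Mir128-2 at 0.523), so their levels as single genes are uncertain. Mir204 is high in choroid plexus, where Igf2 is also known to be expressed. It was at 593 CPM in replicate 1 and 2101 CPM in replicate 2, the direction of Mir483. In that direction 31.6% of all tested genes were called, and Mir204 was the only choroid plexus gene listed. No gene of these lists was at 0. Unplaced reads made up 26.8% of the table in replicate 1 and 14.7% in replicate 2, and reads with several places 38.9% and 45.8%. The part of these marker genes and read classes in the differences of Mir298 and Mir483 was not tested, and in bulk tissue fewer cells of a type and less RNA per cell cannot be told apart.

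The genes nearest to each member over the 2 values of log2(CPM + 1) were found by Euclidean distance. Mir30e (3694 and 3998 CPM in replicates 1 and 2) and Mirlet7f-2 (4150 and 3590.4 CPM) were nearest to Mir335, at distances of 0.06 and 0.17. Mir298 was nearest to Mir219a-2 (3229 and 1127 CPM, distance 0.39) and Mir107 (5894 and 1137 CPM, distance 0.52). Mirlet7f-2, Mir219a-2 and Mir107 have near-identical paralogs, so their levels as single genes are uncertain. Mir300 (751 and 753 CPM) and Mir3099 (724 and 732 CPM) lay nearest to Mir296, at 0.13 and 0.16. Mir344b (40.0 and 77.7 CPM) and Mir410 (47.5 and 75.5 CPM) lay nearest to Mir483, at 0.15 and 0.17. Mir300 and Mir410 belong to the imprinted Dlk1-Dio3 cluster.

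Other miRNA genes around the members had other ratios between the libraries. Within 1000000 bases of Mir335, the detected genes were Mir29a (9631 and 8396 CPM in replicates 1 and 2), Mir183 (9.22 and 127 CPM) and Mir29b-1 (57.0 and 32.9 CPM). Mir182, with 7 reads in replicate 1 and 509 in replicate 2, missed the detection minimum in replicate 1 and was at 0.0171 (adjusted p = 3.57e-117, exact binomial test). Each of the 3 detected genes was called in the exact binomial test, with ratios of 1.15, 0.0726 and 1.73, while Mir335 was at 0.981. No miRNA gene other than the members themselves was detected within that distance of Mir298, Mir296, Mir483 or Mir675.

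Other imprinted regions gave the setting for these levels. The 67 miRNA genes between Dlk1 and Dio3 held 12.02% and 12.9% of sense reads in replicates 1 and 2, with 50 detected, against 17.1% of all miRNA genes. Of 52 tested, 40 were called (17 higher and 23 lower in replicate 1), against 58.0% of all tested genes. The 119 miRNA genes inside Sfmbt2 held 0.183% and 0.148%, with 8 detected and 3 of 8 called, set against the same 17.1% and 58.0%, and many are near-identical copies whose reads may not be assigned. The members, at 0.880% and 0.569%, lay between these regions. The 4.03-fold ratio of Mir298, 2.01 on the log2 scale, lay above the highest log2 ratio of tested genes between Dlk1 and Dio3 (0.77) and inside Sfmbt2 (0.54). The lowest log2 ratios of those regions were -1.68 and -0.47. Mir184, near the imprinted gene Rasgrf1 on chromosome 9, had 80 and 144 reads (27.3 and 39.5 CPM) and a ratio of 0.691 (0.519 to 0.915, adjusted p = 0.0169, exact binomial test).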

How the data were processed

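The authors deposited raw read counts per miRNA gene for each library, without a header, in 3 columns read as counts without strand, sense and antisense. The deposited notes name assembly mm10 and GENCODE M21, and inserts were under 30 bases, per the labels. For the aligner, a name is not given in the sources used here. Per library, 4 rows name no gene; they held 69.5% of reads in replicate 1 and 65.3% in replicate 2 and were left out. All 2202 identifiers matched GENCODE M21. Members and lists were chosen with earlier results of these data known; all members, their neighbours and the 2 nearest genes by level were named.

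With 1 group, edgeR's quasi-likelihood test has nothing to contrast. Each gene with 10 or more sense reads in sum entered an exact binomial test (two-sided) of its reads given the library totals, adjusted by Benjamini-Hochberg over 474 genes (threshold 0.05). Its code was tried on simulated counts with counting noise only, which these libraries exceed. P-values below 1e-300 are given as that limit. The chi-square between libraries was 256 times its degrees of freedom, so the files are not 1 library deposited in duplicate. At 10 reads a gene is at 3.42 CPM in replicate 1 and 2.74 CPM in replicate 2. Alternatives were TMM (edgeR 4.0.16), DESeq2 1.42.0 size factors, other totals, filters, detection limits, pseudocounts, counts without strand and leaving out either replicate. Python 3.11.15, scipy 1.17.1, numpy 2.4.6, matplotlib 3.10.9, R 4.3.3 and RNAfold 2.7.2 were used.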

Additional observations from a re-analysis of the deposited data

How the results depend on the processing

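Of 36 alternative ratios of members, 32 kept their direction and their side of the threshold. The call and direction of Mir298 and Mir483 held under every scaling, filter, pseudocount and orientation tried, with ratios of 3.54 to 4.23 and 0.465 to 0.556. Mir335 was at 1.01 under TMM, 1.03 without the most abundant gene and 0.862 with totals of all reads, which shift all log2 ratios by -0.19; Mir296 was at 0.993 with the latter totals. With totals of all reads, 73 genes were higher in replicate 1. Mean levels were then 1250.5 CPM for Mir335, 813 CPM for Mir298, 246 CPM for Mir296 and 21.02 CPM for Mir483. Without the most abundant gene they were 4356 CPM for Mir335, 2993 CPM for Mir298, 862 CPM for Mir296 and 71.3 CPM for Mir483. Counted without strand they were 4137, 2806, 818 and 68.2 CPM in the same order. These moves follow from the denominators. The place of the Mir298 and Mir296 pair among adjacent pairs was 2, and 1 with mean counts of at least 1000, an alternative added after the data were seen. Leaving out either replicate leaves the other library's values and no ratio, which says nothing on stability with 2 libraries; mean CPM then ran from 1031 to 4155 for Mir298 and from 43.7 to 82.6 for Mir483. No paired analysis was possible because there is 1 group. Depth limits Mir675 and, by its 128 and 301 reads, Mir483.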
